A study of Mus musculus with 15 samples.

Results

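The antibody constant genes and the genes of IgA export were followed in colon tissue from 15 mice. The set holds 10 of the 55335 genes in the data, chosen by name, and no threshold on the values was used. It comprises the heavy chain constant genes Igha, Ighm, Ighg1, Ighg2b and Ighg3, the kappa light chain constant gene Igkc, the joining chain gene Jchain, the epithelial antibody receptor gene Pigr, and the plasma cell genes Mzb1 and Tnfrsf17. Expression was measured by RNA sequencing of total RNA, with 1 library per mouse and 5 mice per group, and is given as FPKM (fragments scaled to the length of the transcript and to the number of mapped fragments in the library). DSS_ICB_Fp mice received dextran sulfate sodium (DSS, a polymer that injures the colon lining), immune checkpoint blockade (ICB) and Faecalibacterium prausnitzii by gavage. DSS_ICB mice received DSS and ICB, and DSS mice received DSS. All 3 groups therefore carried DSS injury, and mice without DSS were not analysed here. The labels give no strain, age, checkpoint antibody, control antibody, control gavage or cage, so a treatment and the procedure of giving it cannot be told apart.

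Antibodies of the gut are made by plasma cells, which lie in the connective tissue beneath the epithelium and mostly make IgA. A B cell first carries IgM, and class switching at the heavy chain locus replaces the mu constant region with that of IgG or IgA. In plasma cells the joining chain links IgA into polymers. The polymeric immunoglobulin receptor, encoded by Pigr, binds joining chain-containing IgA and IgM at the base of epithelial cells and carries them to the gut lumen.

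Between 13243 and 14336 genes per library reached 1 FPKM, at depths estimated from the values as 15.7 to 25.5 M fragments. DSS_ICB 3 stood apart, with a median rank correlation to the other libraries of 0.898, and DSS_ICB 5 followed with 0.916. In DSS_ICB 3 the summed level of 10 epithelial markers was 587 FPKM, against at least 3267 FPKM in every other library. The summed level of 8 smooth muscle markers was 15153 FPKM there, and mitochondrially encoded genes took 33.2% of its FPKM, the highest share. Estimates for Igha, Jchain and Pigr, and several list values that this library moved, are given with and without it. For Ighg1, Ighg2b, Igkc and Mzb1 only ranges over single left-out libraries are given, and these cover its omission. In tissue of mixed cells, fewer cells of a type and less RNA per cell cannot be told apart. Nothing in the labels says how the tissue pieces were taken. Each p-value weighs a difference or a correlation against the spread between these mice.

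The 10 genes spanned more than 3 orders of magnitude in level per kilobase of transcript. Over the 15 libraries Pigr averaged 807 FPKM, Igkc 413 FPKM, Igha 124 FPKM, Jchain 47.6 FPKM and Ighm 33.8 FPKM. Far below them, Ighg1 averaged 3.62 FPKM, Mzb1 3.25 FPKM, Ighg2b 2.56 FPKM, Tnfrsf17 0.581 FPKM and Ighg3 0.172 FPKM. Ighg3 stayed under 1 FPKM in every library and Tnfrsf17 reached it in 2, so these 2 genes did not enter the test, and 8 of the 10 did.

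**Figure D1:**
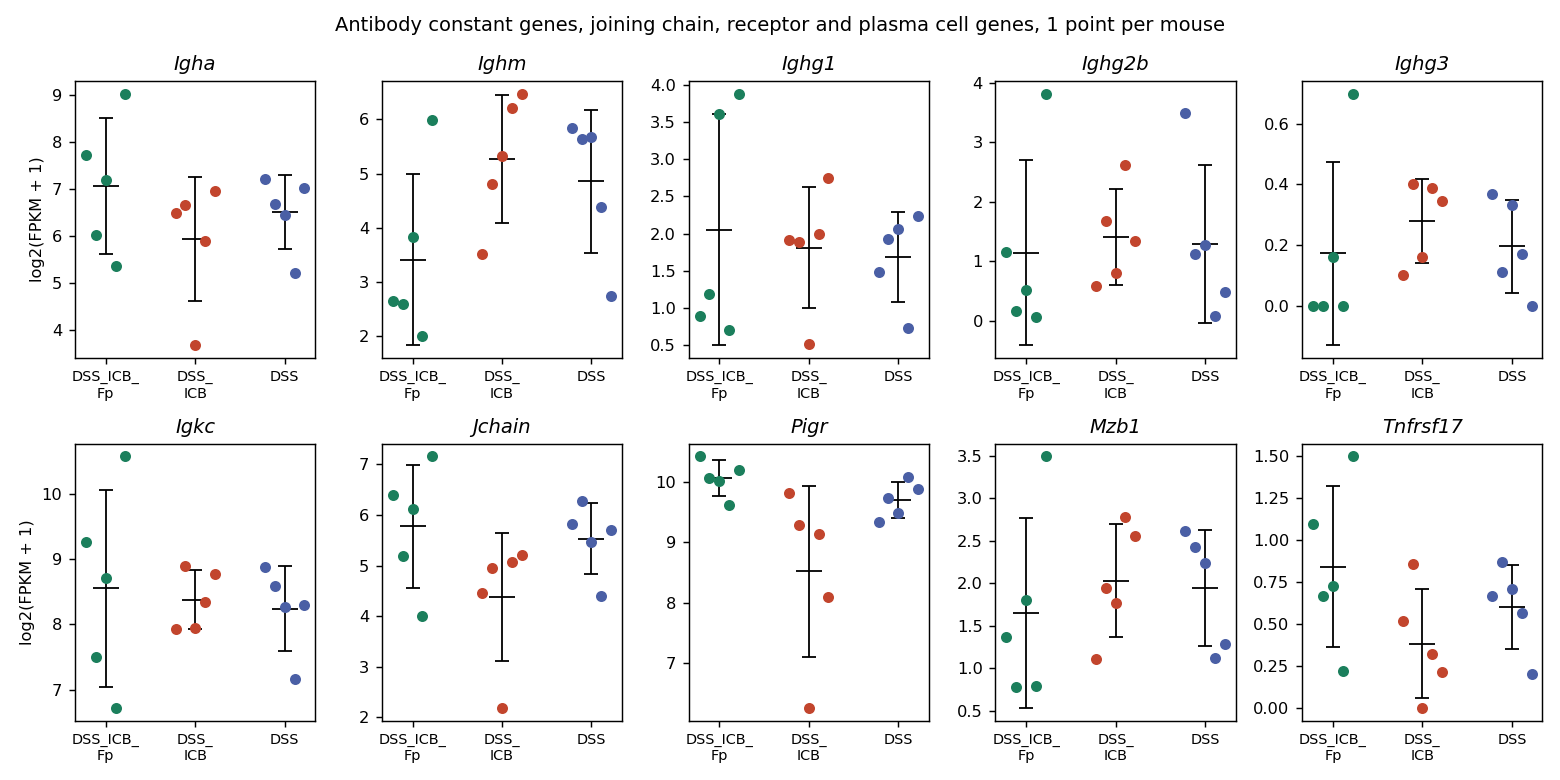
Levels of the 10 genes on the log2(FPKM + 1) scale, 1 point per mouse, in DSS_ICB_Fp, DSS_ICB and DSS mice, with the mean and SD of each group (n = 5). Each panel has its own vertical axis; the groups overlap in every panel, and the single low DSS_ICB point in the Igha, Jchain and Pigr panels is DSS_ICB 3.

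None of the 8 tested genes passed an adjusted p of 0.05 in any comparison by limma, a linear model fitted across all 14385 tested genes with Benjamini-Hochberg adjustment. Between DSS_ICB and DSS, 0 of 8 passed, where 0.0209% of all tested genes did. Between DSS_ICB_Fp and DSS_ICB, 0 of 8 passed, against 0.132% of all genes. Between DSS_ICB_Fp and DSS, 0 of 8 passed, and the share over all genes was 0%. At an unadjusted p under 0.05 the counts were 1, 3 and 0 of 8, beside 11.3%, 21.8% and 1.41% of all genes in the same order of comparisons. In each comparison 5 of 8 had an estimate above 0, beside 52.8%, 44.5% and 47.1% of all genes. The median log2 difference of the 8 was 0.10, 0.21 and 0.28, and that of all tested genes 0.02, -0.04 and -0.01. The groups overlapped for all 10 genes in each comparison, while 1.54%, 3.41% and 0.389% of all tested genes had groups that did not. The differences below are therefore estimates with their intervals, and a p above the threshold does not show that groups were alike.

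Igha, which encodes the constant region of the IgA heavy chain, varied more within the gavaged mice than between the groups. It is annotated as a constant region gene (ENSMUSG00000095079) on the minus strand of chromosome 12, from 113254830 to 113260236 on GRCm38. Igha had 211, 63.4, 144, 40.3 and 523 FPKM in DSS_ICB_Fp mice 1 to 5. It had 88.2, 99.96, 11.7, 58.4 and 124 FPKM in DSS_ICB mice, and 146, 101, 86.2, 36.0 and 128 FPKM in DSS mice. The 3 highest DSS_ICB_Fp mice lay above every DSS_ICB mouse, and the other two lay inside the DSS_ICB range. The log2 difference was 1.13 ± 0.70 for DSS_ICB_Fp against DSS_ICB (SE; limma, 95% interval -0.36 to 2.62, adjusted p = 0.353). It was -0.58 ± 0.70 for DSS_ICB against DSS (adjusted p = 0.741), and without DSS_ICB 3 it was -0.01. Against DSS, the DSS_ICB_Fp difference was 0.55 (limma, adjusted p = 0.9997), and without DSS_ICB_Fp 5 it was 0.06. The first difference was 0.57 without DSS_ICB 3 and 0.64 without DSS_ICB_Fp 5.

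Igkc, the constant gene of the kappa light chain that most mouse antibodies carry, lies on the plus strand of chromosome 6 from 70726435 to 70726966. It had 617, 179.9, 417, 104 and 1533 FPKM in DSS_ICB_Fp mice, 243, 475, 247, 324 and 438 FPKM in DSS_ICB mice, and 470.4, 386, 306, 142 and 315 FPKM in DSS mice. The lowest and the highest of the 15 values both came from gavaged mice. Its log2 differences were 0.18 for DSS_ICB_Fp against DSS_ICB, 0.14 for DSS_ICB against DSS and 0.31 for DSS_ICB_Fp against DSS, the smallest adjusted p of the 3 by limma being 0.883. Without DSS_ICB_Fp 5 the first of these was -0.33 and the last -0.19.

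Jchain, the gene of the joining chain, was low in the DSS_ICB mice. It lies on the minus strand of chromosome 5 from 88519809 to 88527891. It had 82.8, 35.5, 68.5, 15.1 and 142 FPKM in DSS_ICB_Fp mice, 21.0, 30.1, 3.54, 32.8 and 36.1 FPKM in DSS_ICB mice, and 55.5, 77.0, 43.2, 19.9 and 50.9 FPKM in DSS mice. All 5 DSS_ICB mice were below 4 of the 5 DSS mice and below 3 of the 5 DSS_ICB_Fp mice. The log2 difference was -1.15 ± 0.62 for DSS_ICB against DSS (limma, 95% interval -2.48 to 0.18, adjusted p = 0.467) and 1.39 ± 0.62 for DSS_ICB_Fp against DSS_ICB (95% interval 0.06 to 2.73, adjusted p = 0.213). Without DSS_ICB 3 these were -0.60 and 0.85. Its DSS_ICB_Fp difference from DSS was 0.24 (limma, adjusted p = 0.9997), and it was below 0 without DSS_ICB_Fp 5 (-0.11) or without DSS 4 (-0.04). Jchain per Igha, as a ratio of FPKM, ranged from 0.272 to 0.560 in DSS_ICB_Fp mice, from 0.238 to 0.562 in DSS_ICB mice and from 0.379 to 0.761 in DSS mice.

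Ighm, the constant gene of the IgM heavy chain, had a different order of groups from Igha. It lies on the minus strand of chromosome 12 from 113418558 to 113422730. Ighm had 5.31, 5.06, 13.2, 3.03 and 62.0 FPKM in DSS_ICB_Fp mice, 10.5, 27.0, 39.2, 72.8 and 87.7 FPKM in DSS_ICB mice, and 56.3, 48.7, 49.9, 19.995 and 5.69 FPKM in DSS mice. Of the gavaged mice, 3 were below every DSS_ICB mouse and every DSS mouse, and DSS_ICB_Fp 5 was above every DSS mouse. The log2 difference for DSS_ICB_Fp against DSS_ICB was -1.85 ± 0.78 (limma, 95% interval -3.52 to -0.19, adjusted p = 0.189). Against DSS it was -1.44 ± 0.78 (95% interval -3.11 to 0.23, adjusted p = 0.9997). For DSS_ICB against DSS it was 0.41 (limma, adjusted p = 0.838), and without DSS 5 it was -0.12.

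B cell markers moved with Ighm across the same mice. The summed level of 17 B cell genes ranged from 5.09 to 142 FPKM in DSS_ICB_Fp mice with a median of 7.92 FPKM, from 28.9 to 269 FPKM in DSS_ICB mice with a median of 144 FPKM, and from 7.47 to 188 FPKM in DSS mice with a median of 110 FPKM. Cd79a, a signalling chain of the B cell receptor, had 0.987, 0.288, 6.25, 0.574 and 28.7 FPKM in DSS_ICB_Fp mice, 4.89, 11.9, 40.7, 49.2 and 61.6 FPKM in DSS_ICB mice, and 40.1, 24.7, 28.4, 16.3 and 1.19 FPKM in DSS mice. The mice low in Cd79a were the mice low in Ighm, DSS 5 and DSS_ICB 1 among them. All 17 genes had log2 differences below 0 for DSS_ICB_Fp against DSS_ICB, with a median of -1.39, where the median of all tested genes was -0.04 and 44.5% of them lay above 0. By limma 0 of the 17 passed and 13 had an unadjusted p under 0.05, beside 21.8% of all tested genes. Without DSS_ICB 3 the median was again -1.39, and 6 had an unadjusted p under 0.05. All 17 were below 0 for DSS_ICB_Fp against DSS as well, with a median of -1.11 and 0 passing. The median was 0.34 for DSS_ICB against DSS, with 16 of 17 above 0 and 0 passing. Cd79a had -2.70 ± 0.97 and Pax5, a transcription factor gene of B cells, -1.42 for DSS_ICB_Fp against DSS_ICB (limma, adjusted p = 0.142 and 0.150). Cd79a had -2.08 and Fcer2a, a low-affinity IgE receptor gene, -1.40 for DSS_ICB_Fp against DSS, and Pax5 had 0.50 (0.29 without DSS_ICB 3) and Cd72, a B cell surface protein gene, 0.44 (0.29 without it) for DSS_ICB against DSS. The part of the B cell genes in the Ighm difference was not tested.

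Across the 15 libraries Ighm tracked Cd79a closely. On the log2(FPKM + 1) scale Pearson's r between Cd79a and Ighm was 0.978 and Spearman's rho 0.954, each with a permutation p of 1e-05, the smallest that 100000 permutations can give, and 0.00029 when adjusted over 29 relations. Without the 2 libraries farthest from the median of Cd79a, r was 0.974, and over the deviations from the group means it was 0.971. Between Cd79a and Igha r was -0.04 and rho -0.01, with permutation p-values of 0.900 and 0.974. That r was -0.27 without the 2 libraries farthest from the median of Cd79a and 0.258 over the deviations from the group means.

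Igha instead moved with Jchain. Their r was 0.929 and rho 0.889, with permutation p-values of 2e-05 and 5e-05 and adjusted p-values of 0.00029 and 0.000725. Leaving out DSS_ICB 3 and DSS_ICB_Fp 5, the libraries farthest from the median of Igha, r was 0.813. Igha and Igkc had an r of 0.800 and a rho of 0.829, with adjusted permutation p-values of 0.0051 and 0.00164, and r was 0.940 without DSS_ICB 3. In that library Igkc was 247 FPKM while Igha was 11.7 FPKM. Between Igha and Ighm r was 0.104 and rho 0.164, with permutation p-values of 0.715 and 0.558. Within the groups that r was 0.860 in DSS_ICB_Fp mice, -0.04 in DSS_ICB mice and 0.07 in DSS mice.

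**Figure D2:**
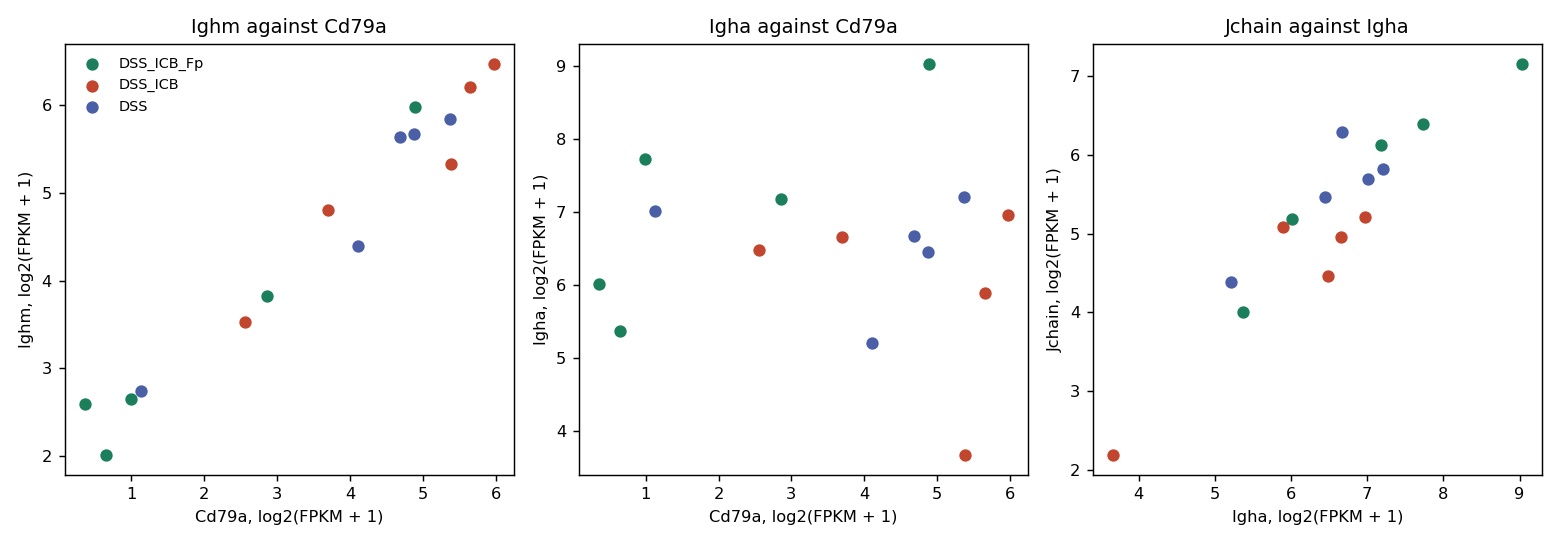
Ighm against Cd79a, Igha against Cd79a and Jchain against Igha, all on the log2(FPKM + 1) scale, with 1 point per mouse coloured by group. The first and last panels form a line across the groups (r = 0.978 and 0.929), and the middle panel does not (r = -0.04).

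The share of each heavy chain class in a mouse does not depend on scaling between libraries. Over the summed FPKM of the 5 heavy chain genes, Igha made up 96.6%, 90.8%, 85.3%, 91.6% and 85.4% in DSS_ICB_Fp mice 1 to 5. It made up 86.4%, 75.6%, 22.4%, 41.8% and 56.5% in DSS_ICB mice, and 68.1%, 65.7%, 61.2%, 63.3% and 92.9% in DSS mice. All gavaged mice were at 85.3% or above, a level that only DSS_ICB 1 and DSS 5 reached in the other groups. Ighm made up 2.43% to 10.1% in DSS_ICB_Fp mice, 10.3% to 75.1% in DSS_ICB mice and 4.13% to 35.4% in DSS mice. Igha was the leading heavy chain in every library except DSS_ICB 3 and DSS_ICB 4, where Ighm led. Igha per Ighm, as a ratio of FPKM, ran from 8.42 to 39.8 in DSS_ICB_Fp mice, from 0.299 to 8.40 in DSS_ICB mice and from 1.73 to 22.5 in DSS mice. This ratio was chosen after its values were seen and was not tested, and the gap between the gavaged and the DSS_ICB mice was the step between 8.42 and 8.40.

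**Figure D3:**
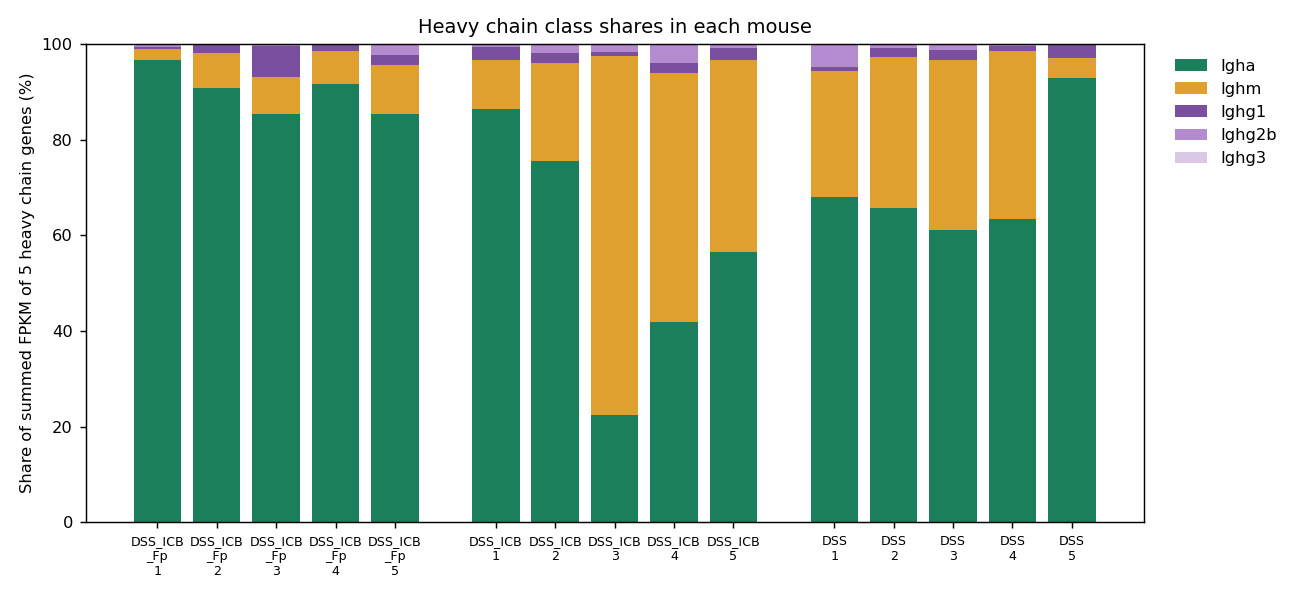
Share of each heavy chain gene in the summed FPKM of Igha, Ighm, Ighg1, Ighg2b and Ighg3, 1 bar per mouse. Igha takes 85.3% to 96.6% of the bar in the DSS_ICB_Fp mice, 22.4% to 86.4% in the DSS_ICB mice and 61.2% to 92.9% in the DSS mice.

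The ratio of Igha to Igkc sets IgA heavy chain RNA against the light chain RNA. It was 0.342, 0.352, 0.346, 0.387 and 0.341 in DSS_ICB_Fp mice, 0.364, 0.210, 0.0474, 0.180 and 0.283 in DSS_ICB mice, and 0.311, 0.262, 0.282, 0.254 and 0.406 in DSS mice. The gavaged mice fell within a narrow band, although their Igha levels spanned 40.3 to 523 FPKM. As a log2 ratio the difference was 0.98 for DSS_ICB_Fp against DSS_ICB (exact two-sided permutation p = 0.0397, and 0.0794 adjusted over the 6 ratio comparisons made). It was -0.74 for DSS_ICB against DSS (exact p = 0.151) and 0.24 for DSS_ICB_Fp against DSS (exact p = 0.0952). With 5 mice a group the smallest exact p is 0.00794. Without DSS_ICB 3 the first of these differences was 0.50, and without DSS_ICB 1 it was 1.23 with an adjusted p of 0.0238. The second was -0.26 without DSS_ICB 3. It was -0.99 without DSS_ICB 1 and the third was 0.35 without DSS 5, each with an adjusted exact p of 0.0476. DSS_ICB 1 and DSS 5 held the highest ratio of their groups, so leaving them out widened these differences.

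The IgG genes were minor in every colon, and together made up 0.960% to 6.93% of the heavy chain FPKM. IgG is the main antibody class of blood. Ighg1 (minus strand of chromosome 12, 113325240 to 113330523) had 0.862, 1.27, 11.2, 0.624 and 13.7 FPKM in DSS_ICB_Fp mice, 2.76, 2.71, 0.428, 2.96 and 5.73 FPKM in DSS_ICB mice, and 1.79, 2.80, 3.17, 0.660 and 3.69 FPKM in DSS mice. The gavaged mice were split, with 2 above every other mouse of the study and 3 at the lower end. Ighg2b (minus strand, 113302965 to 113307933) had 1.24, 0.114, 0.428, 0.0465 and 13.1 FPKM in DSS_ICB_Fp mice, 0.502, 2.18, 0.743, 5.16 and 1.54 FPKM in DSS_ICB mice, and 10.3, 1.18, 1.42, 0.0579 and 0.396 FPKM in DSS mice. DSS_ICB_Fp 5 and DSS 1 held its highest values, and the ranges of all groups lay within 0.0465 to 13.1 FPKM. Ighg3 (minus strand, 113356224 to 113361232) was listed at 0 in 3 DSS_ICB_Fp mice and 1 DSS mouse and was highest in DSS_ICB_Fp 5 at 0.623 FPKM. By limma the log2 differences for DSS_ICB_Fp against DSS_ICB were 0.24 ± 0.61 for Ighg1 (adjusted p = 0.849) and -0.26 ± 0.72 for Ighg2b (adjusted p = 0.864). For DSS_ICB against DSS they were 0.13 and 0.11, and for DSS_ICB_Fp against DSS 0.37 and -0.15, with adjusted p-values of at least 0.944.

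The IgG genes descend from a common ancestor, and stretches of them are alike. In the annotated transcripts 4.15% of the 50-base words of Ighg2b also occurred in Ighg1, Ighg2c or Ighg3, as did 1.58% of those of Ighg3 and 0.393% of those of Ighg1. No 50-base word of Igha, Ighm, Igkc, Jchain or Tnfrsf17 occurred in another gene. How the authors' values split fragments between such stretches is not given in the sources used here, so low Ighg2b values are uncertain. The longest stretch that the coding part of Ighg2b shares with Ighg2c runs to 78 bases. It is shown because fragments inside it cannot be told apart between the 2 genes.
Ighg2b and Ighg2c: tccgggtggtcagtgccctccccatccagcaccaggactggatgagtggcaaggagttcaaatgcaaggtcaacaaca

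Mzb1 and Tnfrsf17 are both used as plasma cell genes, and they varied differently. Mzb1 encodes an endoplasmic reticulum protein that assists antibody assembly in plasma cells and in marginal zone B cells. It had 1.58, 0.720, 2.48, 0.733 and 10.3 FPKM in DSS_ICB_Fp mice, 1.15, 2.84, 2.40, 5.86 and 4.87 FPKM in DSS_ICB mice, and 5.11, 4.39, 3.71, 1.18 and 1.44 FPKM in DSS mice. The highest value was that of DSS_ICB_Fp 5, and the other gavaged mice lay in the lower part of the range of the other groups or below it. Its log2 difference was -0.38 ± 0.49 for DSS_ICB_Fp against DSS_ICB (limma, 95% interval -1.42 to 0.66, adjusted p = 0.676), 0.09 for DSS_ICB against DSS and -0.29 for DSS_ICB_Fp against DSS. With each library left out in turn, the first ranged from -0.84 to -0.17 and the last from -0.75 to -0.08. Across libraries Mzb1 had an r of 0.798 and a rho of 0.814 with Cd79a (adjusted permutation p = 0.00341 and 0.00297), against an r of 0.476 with Igha (adjusted permutation p = 0.138). A read-through transcript model shares 53.5% of the 50-base words of Mzb1, which makes its level uncertain.

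Tnfrsf17 encodes BCMA, the receptor through which plasma cells receive survival signals. It had 1.13, 0.591, 0.654, 0.167 and 1.83 FPKM in DSS_ICB_Fp mice, 0.433, 0.810, 0, 0.249 and 0.158 FPKM in DSS_ICB mice, and 0.591, 0.830, 0.636, 0.480 and 0.148 FPKM in DSS mice. Only DSS_ICB_Fp 1 and DSS_ICB_Fp 5, the gavaged mice with the most Igha, exceeded 1 FPKM. Its r with Igha was 0.752 and its rho 0.557 (adjusted permutation p = 0.00696 and 0.0818). That r was 0.686 without DSS_ICB 3 alone and 0.698 over the deviations from the group means. Without both DSS_ICB 3 and DSS_ICB_Fp 5 it was 0.420, so the relation was weaker without that pair. Its r with Cd79a was -0.02. In a fit with no filter on low values the log2 difference for DSS_ICB_Fp against DSS_ICB was 0.46 ± 0.22 (limma, adjusted p = 0.383).

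Pigr had the largest estimate relative to its error of the 8 tested genes, for DSS_ICB_Fp against DSS_ICB. It lies on the plus strand of chromosome 1 from 130826684 to 130852249. It had 1372, 1065, 1035, 780.2 and 1179 FPKM in DSS_ICB_Fp mice, 898, 623, 75.4, 560.1 and 273 FPKM in DSS_ICB mice, and 647, 854, 717, 1086 and 941 FPKM in DSS mice. Of the gavaged mice 4 were above every DSS_ICB mouse, and of the DSS_ICB mice 4 were below every DSS mouse, DSS_ICB 1 being the exception. The log2 difference was 1.55 ± 0.49 for DSS_ICB_Fp against DSS_ICB (limma, 95% interval 0.49 to 2.60, adjusted p = 0.119) and -1.19 ± 0.49 for DSS_ICB against DSS (95% interval -2.25 to -0.13, adjusted p = 0.430). Relative to DSS the DSS_ICB_Fp difference was 0.36 ± 0.49 (95% interval -0.70 to 1.41, adjusted p = 0.9997). Without DSS_ICB 3 the first 2 estimates were 0.98 (adjusted p = 0.101) and -0.62 (adjusted p = 0.541). The first passed when DSS_ICB 1, the highest of its group, was left out (1.87, limma, adjusted p = 0.0462). It also passed when libraries were weighted by quality (0.97, limma, adjusted p = 0.0492). In those settings 598 and 964 of the 14385 tested genes passed, against 19 in the unweighted fit of all 15 libraries. Over all alternatives the adjusted p of the first estimate ran from 0.0462 to 0.261.

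Epithelial marker levels differed between the same libraries, so Pigr was also read per Epcam, an adhesion molecule of epithelial cells. Epcam averaged 605 ± 32.0 FPKM in DSS_ICB_Fp mice, 465 ± 225 FPKM in DSS_ICB mice and 593 ± 53.1 FPKM in DSS mice (SD, n = 5 each), with 83.0 FPKM in DSS_ICB 3. Pigr per Epcam was 2.13, 1.83, 1.74, 1.23 and 2.07 in DSS_ICB_Fp mice, 1.44, 0.976, 0.909, 1.10 and 0.578 in DSS_ICB mice, and 1.23, 1.53, 1.15, 1.64 and 1.56 in DSS mice. In this ratio DSS_ICB 3 no longer stood apart, and DSS_ICB 5 was the lowest. The log2 ratio differed by 0.88 for DSS_ICB_Fp against DSS_ICB (exact two-sided permutation p = 0.0159, and 0.0794 adjusted over the 6 comparisons). It differed by -0.56 for DSS_ICB against DSS (exact p = 0.0317, adjusted 0.0794) and by 0.33 for DSS_ICB_Fp against DSS (exact p = 0.0952, adjusted 0.114). No comparison passed after adjustment. The first came to an adjusted exact p of 0.0476 without DSS_ICB_Fp 4 and of 0.0317 without DSS_ICB 1. It was also 0.0476 without DSS 5, a mouse outside this comparison. There the difference and its exact p were unchanged, and only the adjustment over the 6 comparisons moved. The second came to an adjusted p of 0.0238 without DSS_ICB 1, and the third to 0.0476 without DSS_ICB_Fp 4. DSS_ICB 1 held the highest ratio of its group and DSS_ICB_Fp 4 the lowest of its group, so leaving either out widened these differences.

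**Figure D4:**
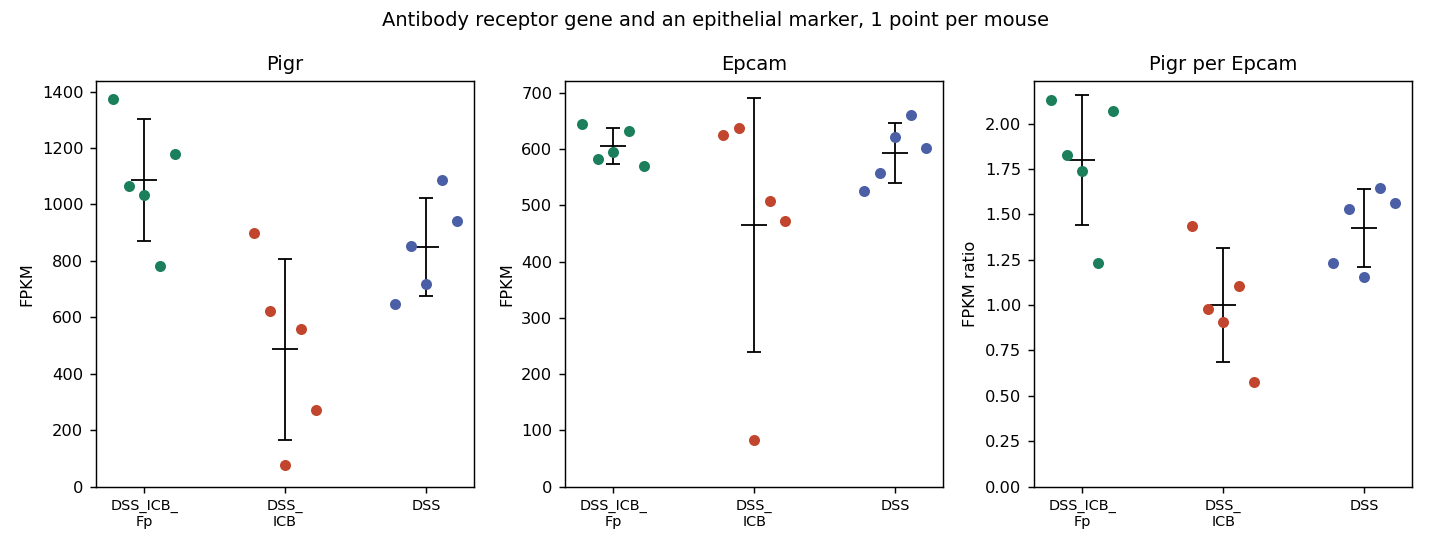
Pigr and Epcam in FPKM and the ratio of Pigr to Epcam, 1 point per mouse, with the mean and SD of each group (n = 5). The ratio averages 1.80 in DSS_ICB_Fp mice, 1.001 in DSS_ICB mice and 1.43 in DSS mice, and DSS_ICB 3, lowest in the first 2 panels, lies inside its group in the third.

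Epcam and Pigr had an r of 0.898 over the 15 libraries (adjusted permutation p = 0.00309), but a rho of 0.571 (adjusted permutation p = 0.0818). Without DSS_ICB 3 alone r was 0.700, and without DSS_ICB 3 and DSS_ICB 5 it was 0.441, so the linear relation was weaker without those 2 libraries. Within the groups r was -0.08 in DSS_ICB_Fp mice, 0.943 in DSS_ICB mice and 0.707 in DSS mice. The genes most like Pigr over the 15 libraries, by Pearson's r of log2(FPKM + 1) and leaving out immunoglobulin chains and predicted gene models, were Hepacam2, Gdpd1, Slc5a8, Atp2c2 and Ush1c, at 0.985 to 0.988. Without DSS_ICB 3 their r was 0.954 to 0.967. For Igha the same rule gave Jchain at 0.929 and then Kat6a, Zfp623, Tarbp1 and Pigg at 0.901 to 0.915, or 0.835 to 0.854 without DSS_ICB 3. All these coefficients share the 15 libraries and the depth of each, and are given as a description.

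Pigr is known to respond to interferon, interleukin and NF-kappa B signals in epithelial cells, and its promoter is printed because this gene had the largest estimate relative to its error. RefSeq on GRCm38.p6 gave promoter windows for 3 of the 10 genes, Pigr, Jchain and Tnfrsf17. The windows were searched on both strands for the E-box CACGTG, the interferon response core TTTCNNTTT, the octamer ATGCAAAT and a kappa B pattern of GGGA, any 4 bases and CC. In the 250 bases before the Pigr start, at chr1:130826434-130826683 on the plus strand, capitals mark a kappa B match on the minus strand and the E-box. In the first 30 bases from the start, at chr1:130826684-130826713, capitals mark the interferon response core.
Pigr before the start: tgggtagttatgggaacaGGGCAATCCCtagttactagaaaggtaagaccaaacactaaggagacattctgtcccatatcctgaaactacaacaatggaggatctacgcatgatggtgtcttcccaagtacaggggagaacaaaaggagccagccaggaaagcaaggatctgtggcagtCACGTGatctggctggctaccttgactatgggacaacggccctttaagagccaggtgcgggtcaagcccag
Pigr from the start: aaaacagTTTCAGTTTtgacaatagtcacc

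Counted from 1 at the first transcribed base, the kappa B match covered positions -232 to -223, the E-box -71 to -66 and the interferon response core 8 to 16. Over 32851 promoter windows of the same length, 20.7% held a kappa B match, 7.15% the E-box, 10.6% the interferon response core and 1.74% the octamer. The Jchain window held none of the 4 patterns, and the Tnfrsf17 window held the interferon response core at -101 to -93. A match describes the letters of the window and not binding.

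**Figure D5:**
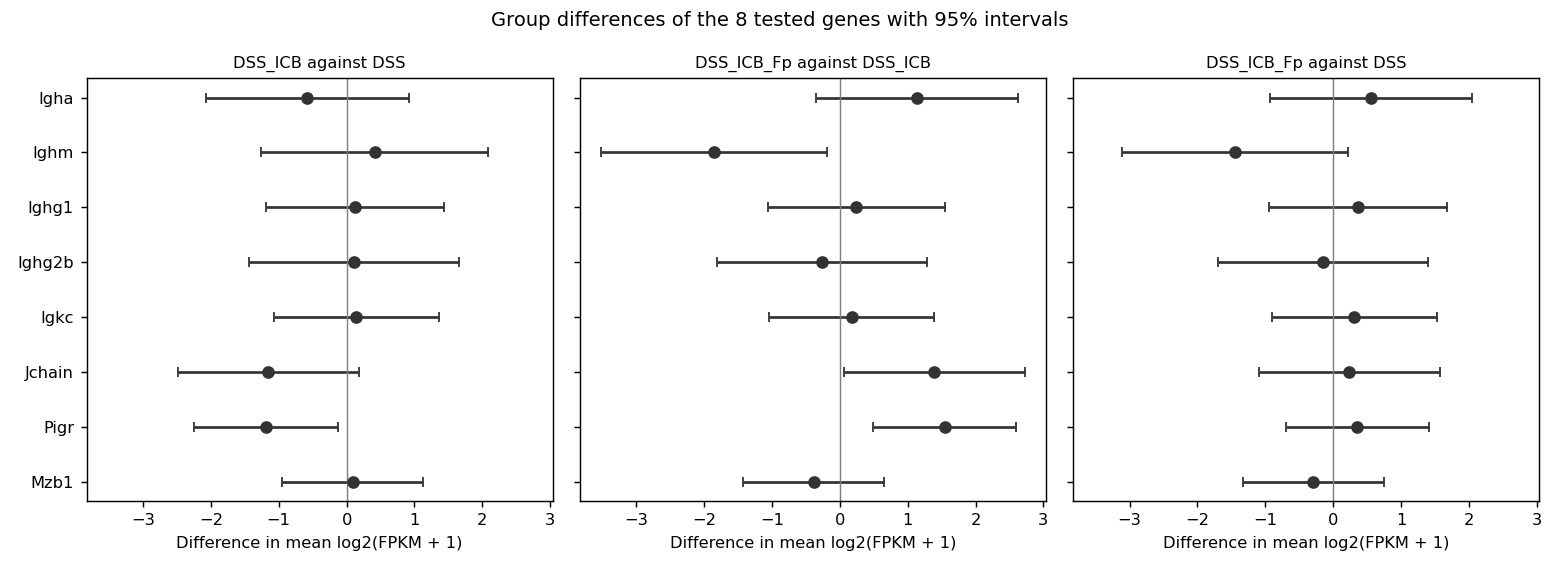
Differences in mean log2(FPKM + 1) of the 8 tested genes for the 3 comparisons, with 95% intervals from limma. The intervals of Pigr and Jchain lie above 0 and that of Ighm below 0 for DSS_ICB_Fp against DSS_ICB, before adjustment for the 14385 genes tested; every interval includes 0 for DSS_ICB_Fp against DSS.

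The other genes of the pathway were counted from lists, in which no gene passed in any comparison by limma, so members are given as values. Among 17 signals for IgA switching and plasma cell survival, 10 were tested. Of these, 8 were below 0 for DSS_ICB_Fp against DSS_ICB, with a median of -0.46, and 5 had an unadjusted p under 0.05, where 44.5% of all tested genes were above 0 and 21.8% had such a p. The medians were 0.30 for DSS_ICB against DSS and -0.14 for DSS_ICB_Fp against DSS. Tnfsf13, the gene of the survival factor APRIL, had a log2 difference of 1.15 ± 0.43 (limma, adjusted p = 0.153), with 8.41 ± 3.22 FPKM in DSS_ICB_Fp mice, 3.70 ± 2.36 FPKM in DSS_ICB mice and 7.11 ± 5.16 FPKM in DSS mice (SD, n = 5 each). Tgfb1, whose product directs switching to IgA, had a log2 difference of -0.76 ± 0.25 (limma, adjusted p = 0.122). Tgfb1 had 0.61 and Aldh1a2, an enzyme of retinoic acid synthesis, 0.55 for DSS_ICB against DSS (limma, adjusted p of 0.430 and 0.418). For DSS_ICB_Fp against DSS, Ltb had -1.0004 and Lta -0.58, both lymphotoxin genes (limma, adjusted p = 0.9997).

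Of 12 plasma cell homing genes 9 were tested, and Ccl28 had the opposite sign from the other 8 in every comparison. For DSS_ICB_Fp against DSS_ICB 7 had an unadjusted p under 0.05, beside 21.8% of all tested genes, and the median was -0.78. Madcam1, the vascular address molecule of the gut, had a log2 difference of -1.42 ± 0.38 (limma, adjusted p = 0.0873) in that comparison and 1.01 ± 0.38 for DSS_ICB against DSS. Cxcl12, a chemokine that retains plasma cells in tissue, had -0.73 ± 0.19 and 0.70 ± 0.19 (limma, adjusted p = 0.0860 and 0.381). Ccl28, the epithelial chemokine that draws IgA plasma cells into the colon, was named after its values were seen. It had 68.2, 36.3, 49.96, 35.3 and 40.9 FPKM in DSS_ICB_Fp mice, 36.8, 26.7, 0.678, 21.4 and 9.86 FPKM in DSS_ICB mice, and 36.1, 44.8, 22.8, 40.2 and 43.1 FPKM in DSS mice. Its log2 differences were 1.77 ± 0.62 for DSS_ICB_Fp against DSS_ICB (limma, adjusted p = 0.137) and -1.49 ± 0.62 for DSS_ICB against DSS (limma, adjusted p = 0.430). Its lowest value was that of DSS_ICB 3, and without that library the differences were 1.03 ± 0.31 and -0.74 ± 0.31 (limma, adjusted p = 0.104 and 0.540). Cxcr4, the receptor for Cxcl12, had -0.90 and the integrin gene Itga4 -0.41 for DSS_ICB_Fp against DSS (limma, adjusted p = 0.9997).

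Genes of plasma cell identity and of the secretory machinery were closer to 0. Of 14 identity genes 12 were tested. Their median log2 difference was -0.24 for DSS_ICB_Fp against DSS_ICB (-0.35 without DSS_ICB 3), 0.04 for DSS_ICB against DSS (0.11 without it) and -0.15 for DSS_ICB_Fp against DSS. In the first comparison 8 of 12 were below 0, or 10 of 12 without DSS_ICB 3, where 44.5% of all tested genes were above 0 with all libraries. Tnfrsf13b, the gene of the receptor TACI that B cells also carry, had -1.01 ± 0.38 for DSS_ICB_Fp against DSS_ICB (limma, adjusted p = 0.154) and -0.80 for DSS_ICB_Fp against DSS. Pou2af1, a B cell coactivator, had -1.17 and the transcription factor gene Irf4 -0.49 in these 2 comparisons in turn. Sdc1 had 0.44 and Cd38 -0.47 for DSS_ICB against DSS (limma, adjusted p of 0.440 and 0.590), and 0.58 and -0.06 without DSS_ICB 3. The summed level of the list, which includes Xbp1 and Sdc1 that epithelial cells also express, was 181 to 220 FPKM in DSS_ICB_Fp mice, 125 to 258 FPKM in DSS_ICB mice and 181 to 245 FPKM in DSS mice. All 17 secretory genes were tested and their medians were -0.02, -0.13 and -0.09 in the same order of comparisons. Without DSS_ICB 3 the first 2 were -0.24 and 0.03. In the first comparison 9 of 17 were below 0 with all libraries and 14 of 17 without DSS_ICB 3. Herpud1, which takes part in protein degradation from the endoplasmic reticulum, was 30.3 to 40.1 FPKM in DSS_ICB_Fp mice, 18.0 to 29.5 FPKM in DSS_ICB mice and 24.2 to 38.8 FPKM in DSS mice. The first 2 ranges do not overlap, as for 3.41% of all tested genes, and the log2 difference was 0.58 ± 0.16 (limma, adjusted p = 0.0906). Herpud1 had -0.43 and Edem1 -0.34 for DSS_ICB against DSS, and -0.34 and -0.05 without DSS_ICB 3. Dnajb9 had 0.30 for DSS_ICB_Fp against DSS_ICB and 0.21 against DSS, where Pdia4 had -0.32.

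Of 6 antibody chain genes outside the set 4 were tested. Ighd, which naive B cells express with Ighm, had a log2 difference of -2.86 ± 1.004 for DSS_ICB_Fp against DSS_ICB (limma, adjusted p = 0.137) and -2.17 ± 1.004 for DSS_ICB_Fp against DSS (adjusted p = 0.9997), and 0.69 for DSS_ICB against DSS. It was 0.461, 0.663, 6.26, 0.311 and 24.8 FPKM in DSS_ICB_Fp mice, 4.81, 12.2, 45.7, 49.0 and 65.0 FPKM in DSS_ICB mice, and 41.5, 26.7, 33.6, 14.4 and 0.756 FPKM in DSS mice. The gavaged mice other than DSS_ICB_Fp 5 and DSS_ICB_Fp 3 had under 1 FPKM, as had DSS 5. Of the lambda light chain genes, Iglc3 had -1.84 ± 0.72 (limma, adjusted p = 0.166) and Iglc1 0.07 for DSS_ICB_Fp against DSS_ICB. Without DSS_ICB 3 these differences were -1.59 and -0.19. Iglc3 had 0.61 and Iglc2 0.59 for DSS_ICB against DSS, and 0.36 and 0.44 without DSS_ICB 3.

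Other antibody receptors were mostly below 0 for DSS_ICB_Fp against DSS_ICB, with 7 of 9 tested genes and a median of -0.41, or 8 of 9 and -0.66 without DSS_ICB 3. Over all tested genes 44.5% were above 0. Of the 9 receptors, 5 had an unadjusted p under 0.05 by limma, beside 21.8% of all tested genes. Fcer1g, the signalling chain of Fc receptors on myeloid cells, had -1.25 ± 0.27 (limma, adjusted p = 0.0712) in that comparison and 1.004 ± 0.27 for DSS_ICB against DSS (limma, adjusted p = 0.375). It averaged 15.3 ± 4.76 FPKM in DSS_ICB_Fp mice, 38.8 ± 16.0 FPKM in DSS_ICB mice and 18.0 ± 3.99 FPKM in DSS mice (SD, n = 5 each). Fcgr2b, the inhibitory IgG receptor, had -1.08 ± 0.30 (limma, adjusted p = 0.0937). Fcamr, a receptor for IgA and IgM, had the opposite sign, with 0.79 ± 0.31 for DSS_ICB_Fp against DSS_ICB and -0.65 ± 0.31 for DSS_ICB against DSS (limma, adjusted p = 0.165 and 0.445), or 0.57 and -0.43 without DSS_ICB 3. Fcgr3, an IgG receptor gene, had -0.55 and Trim21, an antibody receptor inside cells, -0.30 for DSS_ICB_Fp against DSS (limma, adjusted p = 0.9997). Of 8 neutrophil markers, 5 passed with a fall for DSS_ICB_Fp against DSS_ICB by limma, where 0.132% of all tested genes passed in either direction. They were S100a8, S100a9, Retnlg, Clec4d and Csf3r, with log2 differences of -6.10 to -2.59. All 8 had an unadjusted p under 0.05 in that comparison, beside 21.8% of all tested genes. Without DSS_ICB 3, Clec4d and Csf3r no longer passed (limma, adjusted p = 0.0574 each). Their part in the receptor values was not tested.

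Genes known to act on Pigr transcription differed in sign among themselves. All 12 were tested, and their medians were -0.17 for DSS_ICB_Fp against DSS_ICB, 0.11 for DSS_ICB against DSS and -0.05 for DSS_ICB_Fp against DSS. In the first comparison 9 were below 0 and 3 above, beside 44.5% of all tested genes above 0. An unadjusted p under 0.05 was found for 5 of them by limma, beside 21.8% of all tested genes. In the second comparison 8 were above 0 and 4 below, beside 52.8% of all tested genes above 0. Myd88, an adaptor of Toll-like receptors, had -0.59 ± 0.18 for DSS_ICB_Fp against DSS_ICB and 0.50 ± 0.18 for DSS_ICB against DSS (limma, adjusted p = 0.108 and 0.426). Tnfrsf1a, a receptor for tumour necrosis factor, had -0.83 ± 0.27 and 0.81 ± 0.27 (limma, adjusted p = 0.124 and 0.418). Both had the opposite sign from Pigr in both comparisons. Il17rc, a subunit of the interleukin 17 receptor, had 0.22 for DSS_ICB_Fp against DSS and 0.61 ± 0.23 for DSS_ICB_Fp against DSS_ICB (limma, adjusted p = 0.153 for the second), and Irf1, an interferon-regulated factor, had 0.38 ± 0.16 for DSS_ICB_Fp against DSS_ICB (limma, adjusted p = 0.194). For DSS_ICB against DSS these 2 genes had -0.38 and -0.43, or -0.19 and -0.34 without DSS_ICB 3. They shared the sign of Pigr in both comparisons, as did Ifngr1, a receptor chain for interferon gamma, with 0.41 and -0.53 (0.03 and -0.15 without DSS_ICB 3). All 3 genes were named in these comparisons after their values were seen. The part of the 12 genes in the Pigr values was not tested.

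Markers of other cell types also differed in level. The 10 epithelial markers were all below 0 for DSS_ICB against DSS with a median of -0.63, and 9 of 10 were above 0 for DSS_ICB_Fp against DSS_ICB with a median of 0.68. Over all tested genes 52.8% and 44.5% were above 0 in these comparisons with all libraries. Without DSS_ICB 3 the epithelial medians were -0.09 and 0.10, with 6 of 10 below 0 and 7 of 10 above 0. The epithelial transporter gene Slc26a3 had -2.24 and 2.82 (limma, adjusted p = 0.418 and 0.0862), and -1.47 and 2.05 without DSS_ICB 3. Neutrophil markers summed to 2.48 to 34.8 FPKM in DSS_ICB_Fp mice, 131 to 2039 FPKM in DSS_ICB mice and 21.8 to 59.5 FPKM in DSS mice. Erythroid markers summed to 26.4 to 244 FPKM in DSS_ICB_Fp mice, 133 to 1151 FPKM in DSS_ICB mice and 56.4 to 352 FPKM in DSS mice. All 5 had an unadjusted p under 0.05 by limma for DSS_ICB_Fp against DSS_ICB, beside 21.8% of all tested genes. The same held for DSS_ICB against DSS, beside 11.3% of all tested genes, with 0 passing in either comparison. Medians over 6 tested T cell markers were 0.32 for DSS_ICB against DSS and -0.49 for DSS_ICB_Fp against DSS_ICB, and over 8 smooth muscle markers 0.21 and -0.31, with 0 passing in either list. Without DSS_ICB 3 the smooth muscle medians turned to -0.37 and 0.25, and the T cell medians were 0.29 and -0.51. The part of these cell types in the antibody gene values was not tested.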

How the data were processed

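Colon RNA of 15 mice in 3 groups of 5 was sequenced. Per the submitters' processing notes, the authors used FastQC, STAR 2.5, the mm10 genome, Cuffnorm and DESeq. The deposited FPKM values were made by the authors; the unit rests on the named tool and on the values, which summed to 341054 to 443338 per library. Further scaling between libraries and the counting of shared fragments are not given in the sources used here. Gene IDs were matched to GENCODE M21 on GRCm38, 55154 of 55335 with a symbol. Low values lay near a whole fragment step in 9.18% to 38.4% of cases, so whole reads were not recovered, depth is an estimate, and count tests were not used.

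Genes with at least 1 FPKM in at least 5 libraries were tested on log2(FPKM + 1), which understates folds of low genes, with limma 3.58.1 in R 4.3.3 (trend, robust, all 15 libraries, two-sided, Benjamini-Hochberg). The fit was tested on simulated data. Log2 ratios were compared by exact permutation over 252 arrangements in Python 3.11.15 with scipy 1.17.1, and correlations by 100000 permutations. Promoter sequences came from RefSeq on GRCm38.p6, and shared 50-base words from the GENCODE transcripts. The 10 genes and all lists were chosen with earlier results of these data known. All 10 genes were named. From each list, genes that passed were named, otherwise the 2 tested genes with the smallest p in each comparison, not all of which are printed for the marker lists; for likeness, the 5 tested genes with the highest r. Genes outside this rule are identified as such. The value of 1 list gene chosen by it is left out. Alternatives covered scaling, pseudocount, filter, weights, the fitted groups and left-out libraries.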

Additional observations from a re-analysis of the deposited data

Results flagged for a closer look

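In a search of 30 sets of 5 mice for the 10 genes and 9 sets for ratios and shares, 4 held a mouse whose gap to its nearest neighbour was large for the range of the set by Dixon's criterion, 0.71 for 5 samples. Chance flags about 1 in 20 such sets.

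Ighg3 was 0.623 FPKM in DSS_ICB_Fp 5, and the next gavaged mouse had 0.116 FPKM. That mouse also held the highest Igha, Ighg1, Ighg2b, Igkc, Jchain, Mzb1 and Tnfrsf17 values of the study, and immunoglobulin chain genes took 1.67% of its FPKM, against 0.102% to 0.599% in all the other libraries.

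Jchain was 3.54 FPKM in DSS_ICB 3, and the next DSS_ICB mouse had 21.0 FPKM. Its ratio of Jchain to Igha was 0.302, inside the range of its group.

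The log2 ratio of Igha to Igkc was -1.37 in DSS_ICB_Fp 4 and -1.51 in the next gavaged mouse, within a group whose SD was 0.0754.

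Igha made up 92.9% of the heavy chain FPKM in DSS 5, where the next DSS mouse had 68.1%. DSS 5 had the lowest B cell marker sum of its group, 7.47 FPKM, beside an Igha level of 128 FPKM that lay within the group.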

How the results depend on the processing

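No paired analysis was possible because the mice carry no number or label that matches them between groups. Over 26 alternatives of the gene fit, Igha, Jchain and Pigr kept their direction for DSS_ICB against DSS, and Igha, Ighm, Jchain and Pigr for DSS_ICB_Fp against DSS_ICB. Igha came as close to 0 as -0.01 for DSS_ICB against DSS, without DSS_ICB 3. Mzb1 stayed below 0 for DSS_ICB_Fp against DSS_ICB over its 25 alternatives. Leaving out each library in turn, log2 differences for DSS_ICB against DSS ranged from -0.11 to 0.45 for Ighg1, -0.19 to 0.66 for Ighg2b, -0.13 to 0.30 for Igkc, -0.11 to 0.32 for Mzb1 and -0.12 to 0.85 for Ighm. For DSS_ICB_Fp against DSS_ICB they ranged from -0.22 to 0.58 for Ighg1, -0.93 to 0.042 for Ighg2b and -0.33 to 0.63 for Igkc. For DSS_ICB_Fp against DSS they ranged from -0.82 to 0.40 for Ighg2b, -0.11 to 0.68 for Jchain, -0.090 to 0.71 for Ighg1 and -0.19 to 0.77 for Igkc. With a pseudocount of 10 Ighg2b had -0.034, 0.039 and 0.0045 in these 3 comparisons, and without DSS_ICB 3 and DSS_ICB 5 together Ighm had -0.0094 for DSS_ICB against DSS. That pair left out, Pigr had 0.65 (limma, adjusted p = 0.191) for DSS_ICB_Fp against DSS_ICB and -0.30 for DSS_ICB against DSS.

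Genes passing for DSS_ICB against DSS were 3, but 1 with upper-quartile scaling, a pseudocount of 10, no filter, a filter of 5 FPKM or the 2 compared groups alone, 0 with a pseudocount of 0.1, and 0 to 7 with a library left out, the highest without DSS_ICB 4. For DSS_ICB_Fp against DSS_ICB they were 19, but 37 rescaled without immunoglobulin chain genes, 42 with a pseudocount of 0.1, 5 with one of 10, 7 with no filter, 11 with a filter of 5 FPKM, 0 with the 2 groups alone, 964 with quality weights, and 5 to 598 with a library left out. The counts were 598 without DSS_ICB 1, 449 without DSS_ICB_Fp 4, 153 without DSS_ICB 2 and 75 without DSS_ICB 4. Of the 8 tested antibody genes 1, Pigr, passed with quality weights, and 0 to 1 with a library left out. For DSS_ICB_Fp against DSS the count was 0 throughout. The log2 ratio of Pigr to Epcam ranged with a library left out from 0.70 to 1.03, -0.70 to -0.37 and 0.25 to 0.45 for DSS_ICB_Fp against DSS_ICB, DSS_ICB against DSS and DSS_ICB_Fp against DSS. The log2 ratio of Igha to Igkc ranged from 0.50 to 1.23, -0.99 to -0.26 and 0.18 to 0.35 in that order. Adjusted p-values under 0.05 among these came without DSS_ICB 1, DSS 5 or DSS_ICB_Fp 4. DSS_ICB 1 had the highest value of both ratios in its group (1.44 and 0.364). DSS 5 had the highest Igha to Igkc ratio of its group (0.406). DSS_ICB_Fp 4 had the lowest Pigr to Epcam ratio of its group (1.23). Leaving out the mouse nearest the compared group widens a difference in itself, so these p-values add no support. Lists were also read without DSS_ICB 3, an alternative chosen after seeing the data, and 3 medians turned sign, to -0.37 and 0.25 for smooth muscle markers (DSS_ICB against DSS, and DSS_ICB_Fp against DSS_ICB) and to 0.032 for secretory genes (DSS_ICB against DSS). DSS_ICB 3 has few epithelial transcripts, and genes under 1 FPKM rest on few fragments.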
